A study of Drosophila melanogaster with 3 samples.

Results

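The 10 genes described here encode core proteins of the Polycomb and trithorax groups of Drosophila melanogaster, and were taken from a fixed list by gene name. They are Pc, ph-p, ph-d, Psc and Su(z)2 of Polycomb repressive complex PRC1, E(z), esc and Su(z)12 of complex PRC2, and the trithorax group genes trx and ash1. All 10 were found among the 13968 protein-coding genes of the Ensembl annotation on dm6. The data are peaks of chromatin immunoprecipitation and sequencing for rgr, a protein assayed as a transcription factor, from whole larvae of the third instar, at the wandering stage, with both sexes pooled. The line stably expresses rgr fused at its carboxyl terminus to GFP, and an antibody against GFP was used, although 1 label field gives the antibody as rgr. The 3 biological replicates form 1 group with no second genotype or treatment. The labels do not name the promoter that drives the fusion, and whole larvae mix the chromatin of all tissues. Peak lists hold no expression values, so neither the stage nor the fusion could be checked against markers.

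Polycomb group proteins keep developmental genes silent through many cell divisions. PRC2 methylates histone H3, while PRC1 reads that mark, ubiquitylates histone H2A and compacts chromatin. Trithorax group proteins work against this silencing and keep the same kinds of genes active, and several Polycomb group genes are themselves bound by Polycomb proteins. In larvae the balance of the 2 groups holds segment identity and imaginal disc growth in place.

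A summit is the highest point of a peak, and the list called optimal holds the 8551 peaks that passed the authors' reproducibility threshold. Every optimal summit in a gene or within 2 kb of it was taken, which gave 22 distinct summits, with 1 of them near both ph-p and ph-d. The authors' peak signal has no unit and no stated scaling between lists, so it describes peaks within the optimal list, and replicates are compared by rank. Each replicate list holds 30000 entries, and rank 1 is the strongest. The depth behind the lists is unknown. A shared control alignment served for every list, and no untagged line is among the samples, so enrichment that does not depend on the fusion was not tested.

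An optimal summit lay in or near 9 of the 10 genes, all but esc, against 46.0% of all protein-coding genes. Within 500 bp of an own transcript start, a summit was present at 5 of the 10, which were ph-p, ph-d, Su(z)2, E(z) and Su(z)12, against 29.0% of all protein-coding genes. The genes ph-p, ph-d and trx had 4 or more summits in this window, as did 5.14% of protein-coding genes. A summit among the 1000 strongest of the list stood in the window of 6 of the 10, against 11.1% of protein-coding genes. For Pc and ash1 this summit lay outside the gene and nearer to the start of another gene. The 10 genes are long, with a median of 9697 bp against 2164.5 bp for all protein-coding genes, and a longer window can hold more summits. No test was made of the list as a whole.

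**Figure D1:**
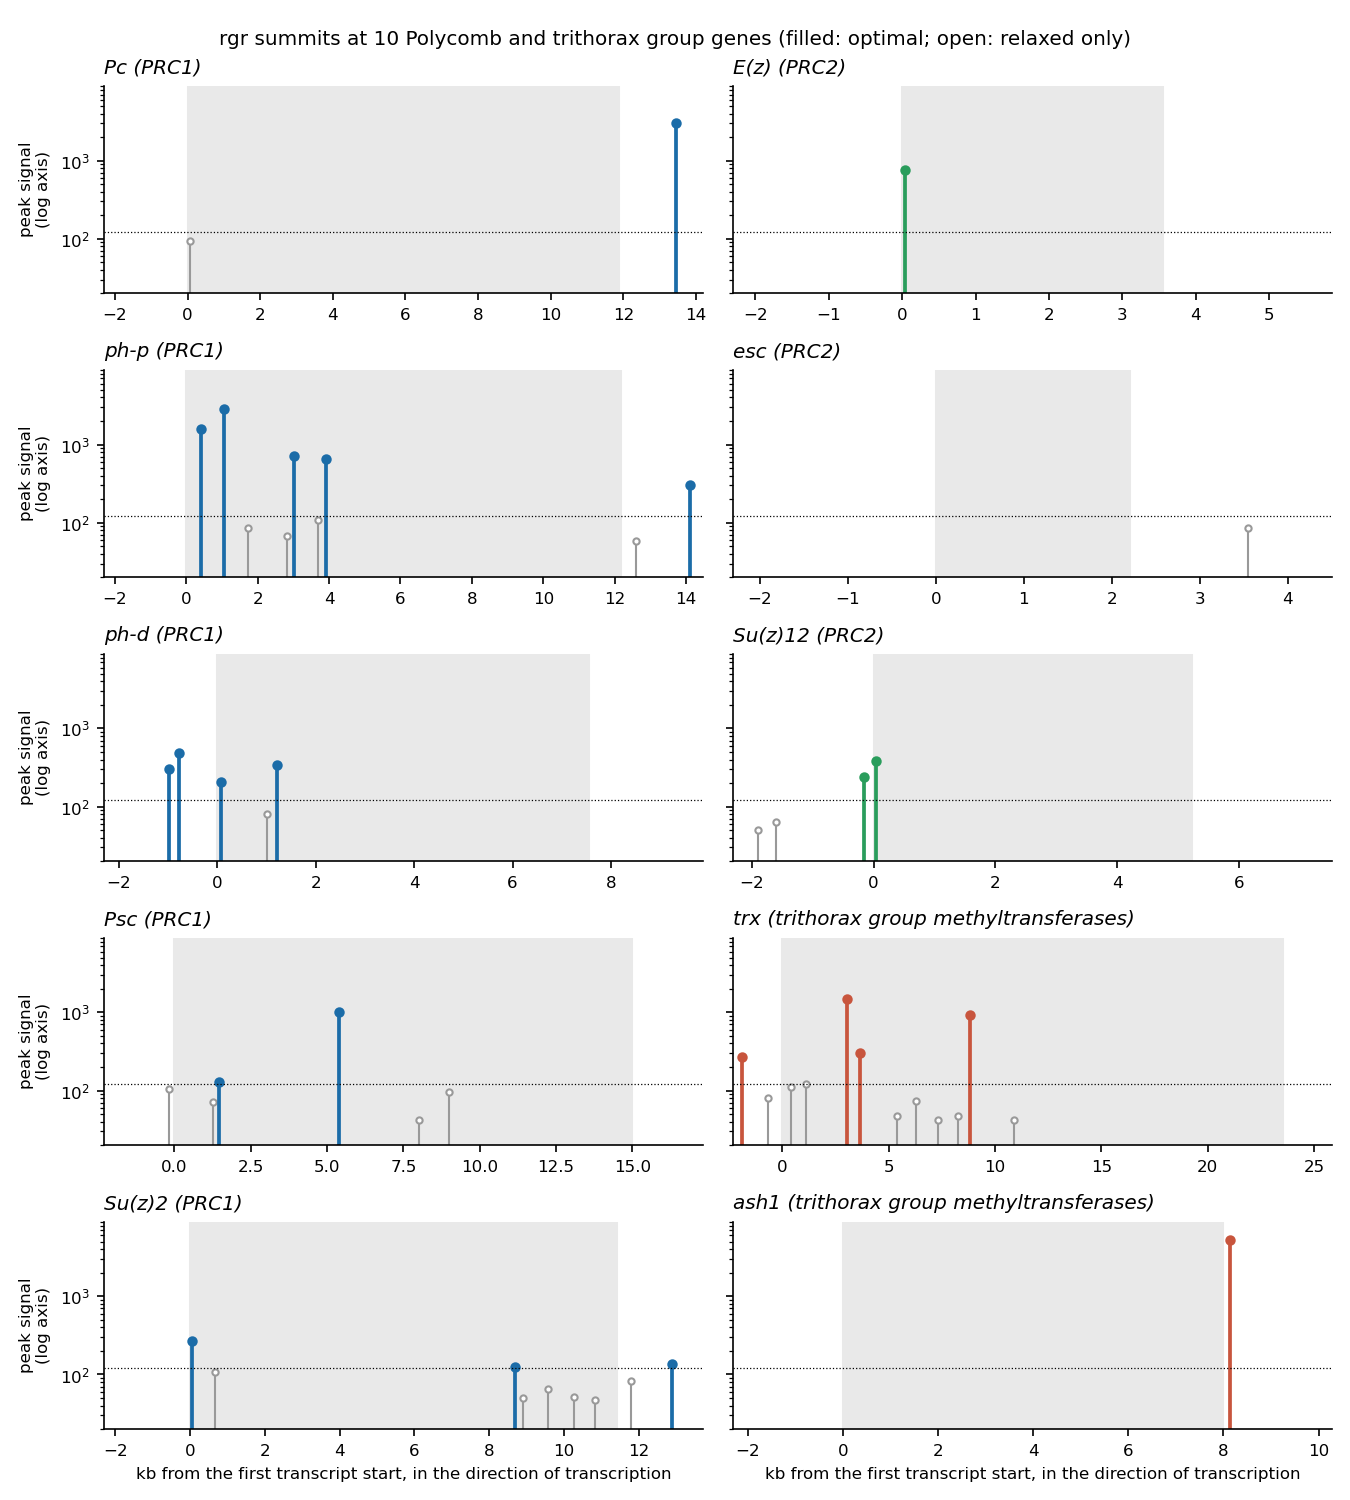
Peak signal (log axis) of each summit against its distance in kb from the gene's first transcript start, read in the direction of transcription, with the gene body in grey. Filled points are optimal summits, open grey points are entries of the pooled relaxed list alone, and the dotted line is the lowest optimal signal of 123: ph-p, ph-d, Su(z)2, E(z) and Su(z)12 carry filled points near the start, Psc and trx carry their strongest within the body, and those of Pc and ash1 lie past the 3′ end.

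The tandem genes ph-p and ph-d, which encode the proximal and distal forms of Polyhomeotic, the PRC1 subunit whose domain forms polymers, carried the densest summits of the 10. They had 3.09 and 3.46 optimal summits per 10 kb of window, against a median of 1.39 over the 10 genes. The gene ph-p (X:2126210-2138371, minus strand) has 3 transcript starts and 5 summits in its window. Its strongest summit, at X:2137326 with signal 2849, lay 1045 bp downstream of the first start, 471 bp upstream of the middle start and 704 bp upstream of the last. There it was in an intron of the longest transcript and outside the other 3. It ranked 12, 23 and 25 in replicates 1, 2 and 3. The next summit, at X:2137959 with signal 1556, lay in the 5′ UTR of the longest transcript, 412 bp from the first start, and ranked 84, 119 and 141. The strongest summit of ph-p had 1.93 ± 0.0102 times the signal of the next within the same replicate list (SD, n = 3), so this ratio hardly varied between replicates. The peaks of the 2 summits overlapped by 74 bp. Both remaining summits within ph-p, at X:2135346 and X:2134470, were in an intron of all 4 transcripts, 1276 and 2152 bp downstream of the last start. They had signals of 703 and 643 and ranks of 693, 614 and 1224 and of 802, 810 and 775 in replicates 1, 2 and 3. The first of these was placed lower in replicate 3 than in the other replicates.

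At ph-d (X:2115727-2123286, minus strand) the summits were weaker. The strongest, at X:2124064 with signal 490, lay 778 bp upstream of the first start and ranked 1349, 1449 and 1356 in replicates 1, 2 and 3. A neighbour 202 bp further upstream, at X:2124266 with signal 299, ranked 3196, 2826 and 2641 and is the summit that also falls within 2 kb of the 3′ end of ph-p. The summit at X:2123216, with signal 206, was in the 5′ UTR 70 bp from the first start and ranked 6349, 4708 and 5071. That at X:2122067, with signal 337, was in an intron 275 bp upstream of the other start and ranked 2440, 2194 and 3460. The strongest summit of ph-p had 6.24 ± 0.697 times the signal of the strongest at ph-d within a replicate list (SD, n = 3), and the rank ranges of the 2 summits did not overlap. Larvae of both sexes were pooled, and males carry 1 X chromosome. Whether the peak signal already accounts for chromosome copy number is not known. No correction was made here where ph-p and ph-d are ordered among autosomal genes.

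The 2 genes are tandem duplicates, and the strongest summit of each lay in a stretch that did not align to the other. The peak around each of these summits reached into aligned sequence. Alignment of the regions gave 4 blocks over 100 bp long, of which the longest, 4480 bp at 92.0% identity, held no optimal summit in either gene. In the 5′ part, the blocks of 90.7% and 70.5% identity were separated by 208 bp in ph-p and by 15 bp in ph-d, and the strongest summit of ph-p stood within those 208 bp. The blocks of 70.5% and 81.0% identity were separated by 98 bp in ph-p and by 209 bp in ph-d, and the strongest summit of ph-d stood within those 209 bp. By contrast, the next summit of ph-p at X:2137959 and the summit upstream of ph-d at X:2124266 fell on aligned bases within 1 bp of each other, near the edge of the block of 81.0% identity. These last 2 had pooled ranks of 117 and 2869. The ph-d summit at X:2123216 lay in the block of 90.7% identity, where the nearest optimal summit to the paired base of ph-p was 547 bp away. Reads from identical copies cannot be placed uniquely. Of the 36-base stretches within each peak at the 2 genes, 29 of 511 (5.68%) in the strongest ph-p peak occur elsewhere in the genome, and 0 in each of the other 7 peaks. Only called peaks were searched in this way. Whether reads could be placed uniquely in the 4480 bp block was not tested. The windows below cover 50 bases either side of 3 of these summits, on the minus strand as the genes read. They are shown because the first and second surround the strongest summit of each gene, with part of the ph-d window in the block of 70.5% identity, and the last is the ph-d side of the aligned pair. Capitals mark matches to the words listed further on.
ph-p strongest summit, chrX:2137276-2137376: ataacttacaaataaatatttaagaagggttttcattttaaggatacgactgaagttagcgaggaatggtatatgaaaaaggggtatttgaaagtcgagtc
ph-d strongest summit, chrX:2124014-2124114: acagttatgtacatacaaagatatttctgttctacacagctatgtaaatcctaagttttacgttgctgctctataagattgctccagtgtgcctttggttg
ph-d upstream summit, chrX:2124216-2124316: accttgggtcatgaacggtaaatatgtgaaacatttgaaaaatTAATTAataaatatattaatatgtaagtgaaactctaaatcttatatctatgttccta

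**Figure D2:**
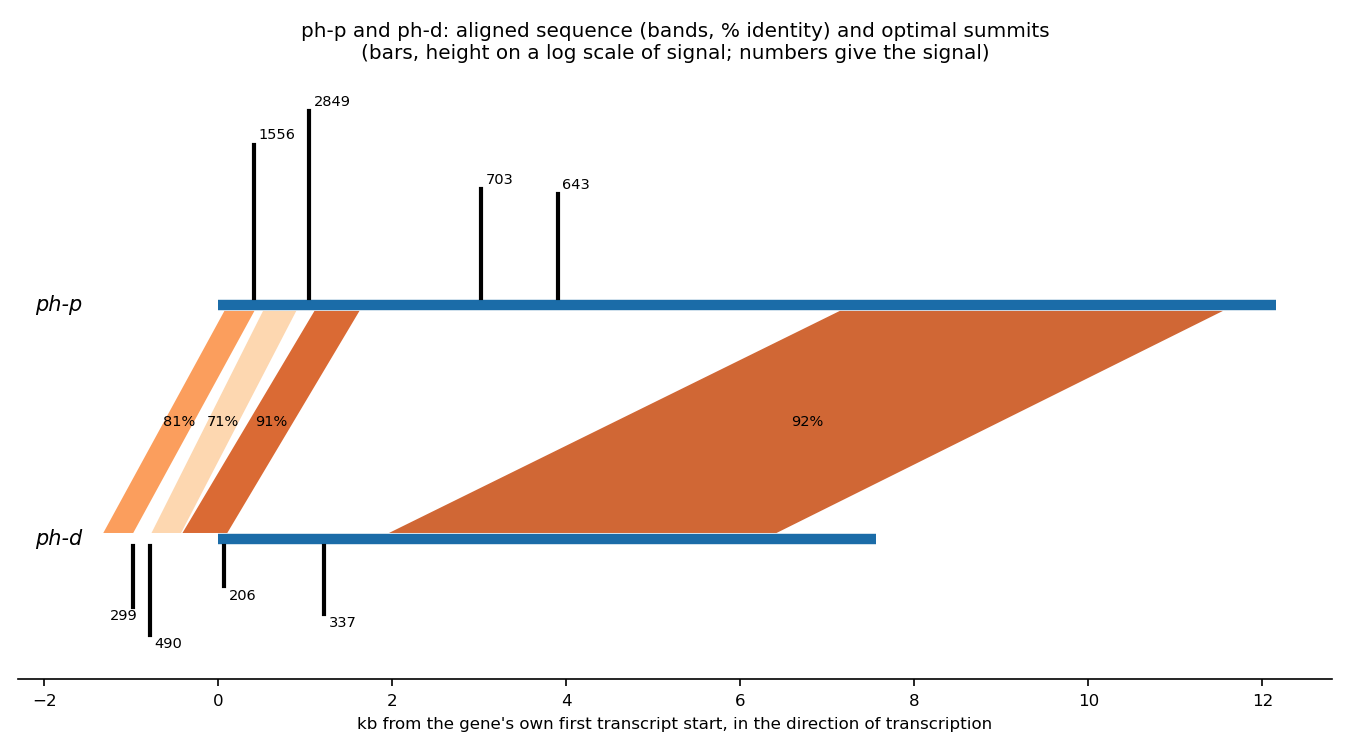
Alignment of ph-p (above) and ph-d (below), each drawn by distance in kb from its own first transcript start in the direction of transcription. Bands join the 4 aligned blocks over 100 bp with their percent identity, and bars give the optimal summits with height on a log scale of signal and the signal printed: the bars of 2849 at ph-p and 490 at ph-d stand between bands, and those of 1556 and 299 stand at paired positions.

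The strongest summit of trx was in an intron and not at its start. The gene (3R:14263358-14286903, minus strand) encodes a histone H3 methyltransferase that keeps homeotic genes active, and its 5 transcripts share 1 start. Of its 4 summits, that at 3R:14283879 had signal 1468, lay 3024 bp downstream of the start and ranked 149, 128 and 115 in replicates 1, 2 and 3. A further intronic summit at 3R:14278066, with signal 936, lay 8837 bp from the start and ranked 477, 350 and 381. Within a replicate list the strongest had 1.58 ± 0.0990 times the signal of this next one (SD, n = 3), and their rank ranges did not overlap. The summit at 3R:14283250, with signal 303, was 629 bp downstream of the strongest and ranked 1748, 2879 and 2556. These 3 were in an intron of all 5 transcripts. The last, at 3R:14288809 with signal 266, was 1906 bp upstream of trx but 262 bp upstream of red, the gene read from the other strand, and ranked 2836, 3463 and 4037. At the trx start itself there was only an entry of the pooled relaxed list, 388 bp downstream with signal 111, and replicate 3 had no summit within 100 bp of it.

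The gene ash1 (3L:19590773-19598755, minus strand) encodes a histone H3 methyltransferase of the trithorax group, and the summit in its window was the strongest of the 22. This summit at 3L:19590615 had signal 5191 and was second of the 8551. It ranked 2, 1 and 2 in replicates 1, 2 and 3. It lay 158 bp past the 3′ end of ash1 and 8140 bp from the ash1 start, and 91 bp upstream of the start of CG14100, which is read from the same strand. The start of ash1 had no relaxed entry within 500 bp. The windows below are at the strongest trx summit, at the next trx summit and at the summit between ash1 and CG14100, on the minus strand. They are shown as the strongest sequences of the trithorax group genes.
trx strongest summit, chr3R:14283829-14283929: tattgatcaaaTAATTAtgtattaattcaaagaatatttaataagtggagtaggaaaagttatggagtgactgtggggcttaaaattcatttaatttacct
trx next summit, chr3R:14278016-14278116: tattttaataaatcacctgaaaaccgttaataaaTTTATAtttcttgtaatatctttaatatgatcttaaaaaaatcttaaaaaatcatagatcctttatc
ash1 and CG14100 summit, chr3L:19590565-19590665: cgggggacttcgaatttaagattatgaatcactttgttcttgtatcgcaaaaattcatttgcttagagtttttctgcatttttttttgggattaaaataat

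Pc, which encodes the PRC1 subunit whose chromodomain binds methylated histone H3, also had its only optimal summit nearer to another gene. The gene lies at 3L:21306138-21318020 on the minus strand with 1 transcript. The summit at 3L:21304570 had signal 3008, was 1568 bp past the 3′ end of Pc and 13450 bp from its start, and lay 88 bp inside CG11309, downstream of that gene's start. It ranked 14, 25 and 20 in replicates 1, 2 and 3. Over all protein-coding genes, 18.1% had summits in this window that were all nearer to the start of another gene, as Pc and ash1 did, 2 of the 10. At the Pc start, 78 bp downstream, the pooled relaxed list had an entry of signal 93.0 at rank 11230, below the threshold and without a match in replicate 1.

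Psc and Su(z)2, neighbours on 2R, encode related RING finger proteins of PRC1 and differed in where their summits lay. Psc (2R:12965997-12980994, minus strand) had its strongest at 2R:12975603, with signal 1009, in an intron of all 3 transcripts, 5391 and 5055 bp downstream of its 2 starts. It ranked 324, 374 and 297 in replicates 1, 2 and 3. A second intronic summit at 2R:12979537 had signal 128, near the threshold, and was the only one of the 22 without a match in every replicate: replicate 1 had none within 100 bp, and the ranks were 8707 and 17691 in replicates 2 and 3. Upstream of the Psc start, the relaxed list had an entry of signal 106 at 167 bp, which ranked 9858, 13102 and 14920. Su(z)2 (2R:12996501-13007911, plus strand) had its strongest summit at the start, 54 bp downstream in the 5′ UTR, at 2R:12996555 with signal 271. It ranked 2921, 4928 and 2127, a spread of more than 2000 ranks. Its other summits, in an intron at 2R:13005197 and 1484 bp past the 3′ end at 2R:13009395, had signals of 124 and 135. The intronic one ranked 11025, 8157 and 24327, and the other 8344, 7356 and 7317. The strongest summit of Psc had 3.66 ± 0.997 times the signal of the strongest at Su(z)2 within a replicate list (SD, n = 3), and their rank ranges did not overlap. The 15506 bp between the genes held 3 more optimal summits, none within 2 kb of either gene.

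Among the PRC2 genes, E(z) and Su(z)12 had summits at their starts and esc had none. E(z), which encodes the methyltransferase of PRC2 (3L:10634575-10638130, minus strand), had 1 summit at 3L:10638088 with signal 750. It was in the 5′ UTR, 42 bp downstream of the first start and 209 bp upstream of the other, and 58 bp upstream of Cnep1r2, which is read from the other strand. It ranked 636, 667 and 721 in replicates 1, 2 and 3. Su(z)12, which encodes a structural subunit that the methyltransferase needs (3L:19918242-19923462, minus strand), had a summit of signal 380 at 3L:19923428 in the 5′ UTR, 34 bp downstream of its start. This one ranked 1674, 2232 and 2491. The other, of signal 240 at 3L:19923627, was 165 bp upstream of Su(z)12 and 44 bp upstream of Pfdn6, which encodes a prefoldin subunit and is read from the other strand, and it ranked 3856, 3907 and 6868. The 2 summits were 199 bp apart and their peaks overlapped by 217 bp. The E(z) summit had 1.94 ± 0.194 times the signal of the strongest Su(z)12 summit within a replicate list (SD, n = 3). The gene esc (2L:11827204-11829405, minus strand), which encodes the PRC2 subunit that recognises the methyl mark, had no optimal summit within 10655 bp of it. Its window held 1 relaxed entry, past the 3′ end, of signal 86.3 at ranks 14902, 12216 and 15923.

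By the strongest summit in the window the genes ran ash1, Pc, ph-p, trx, Psc, E(z), ph-d, Su(z)12 and Su(z)2. The places of ash1 and Pc rest on summits outside these genes, 91 bp from the start of CG14100 and 88 bp from that of CG11309. The genes ph-p and ph-d are on X, and no correction for its copy number was made here. Neighbours in this order had separate rank ranges over the 3 replicates, except Pc with ph-p (14 to 25 against 12 to 25) and Su(z)12 with Su(z)2 (1674 to 2491 against 2127 to 4928). The pooled signal that picked and ordered these summits was derived from the same 3 replicates. Separate ranges, here and in the comparisons above, are therefore no independent check of the order. Of all protein-coding genes, 0.0286% had a summit in the window at least as strong as that of ash1, 0.308% as that of Pc and 0.372% as that of ph-p. The share was 1.96% for trx, 4.38% for Psc, 7.53% for E(z), 14.1% for ph-d, 19.5% for Su(z)12 and 27.7% for Su(z)2.

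**Figure D3:**
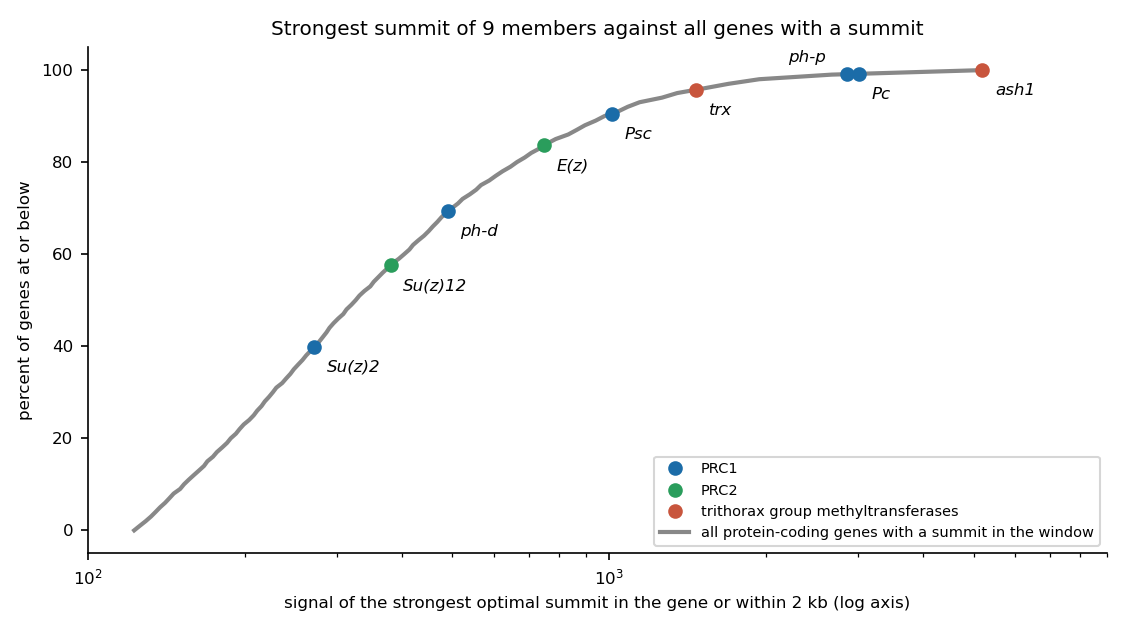
Percent of protein-coding genes with a summit in the window whose strongest optimal summit has at most the signal on the x axis (log axis), with the 9 genes that have a summit as coloured points by complex. Su(z)2 at 271 sits in the lower part of the curve, and Pc at 3008, ph-p at 2849 and ash1 at 5191 sit at its upper end. The summits plotted for Pc and ash1 lie outside these genes and nearer to the start of another gene.

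The 22 summits were found again in the replicates about as often as other peaks. A summit within 100 bp was present in all 3 replicate lists for 21 of the 22, against 89.5% of the optimal list, which was itself derived from these replicates. Counted in ranks, the weakest summits moved most, with Psc at 2R:12979537 and Su(z)2 at 2R:13005197 the only ones outside the 8551 strongest entries of a replicate. Within 500 bp of a start of any gene lay 11 of the 22 summits, against 45.6% of all optimal summits. Inside the 10 genes were 15 summits, of which 10 were in introns, 5 in 5′ UTRs and 0 in coding exons or 3′ UTRs. The same split was not counted over all optimal summits, so it cannot be read as particular to these genes. The median signal of the 22 was 435, and that of the whole list was 225. The 101 bases around each summit were 63.9% A or T in the median, from 45.5% to 82.2%, against a median of 65.3% for the whole list.

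**Figure D4:**
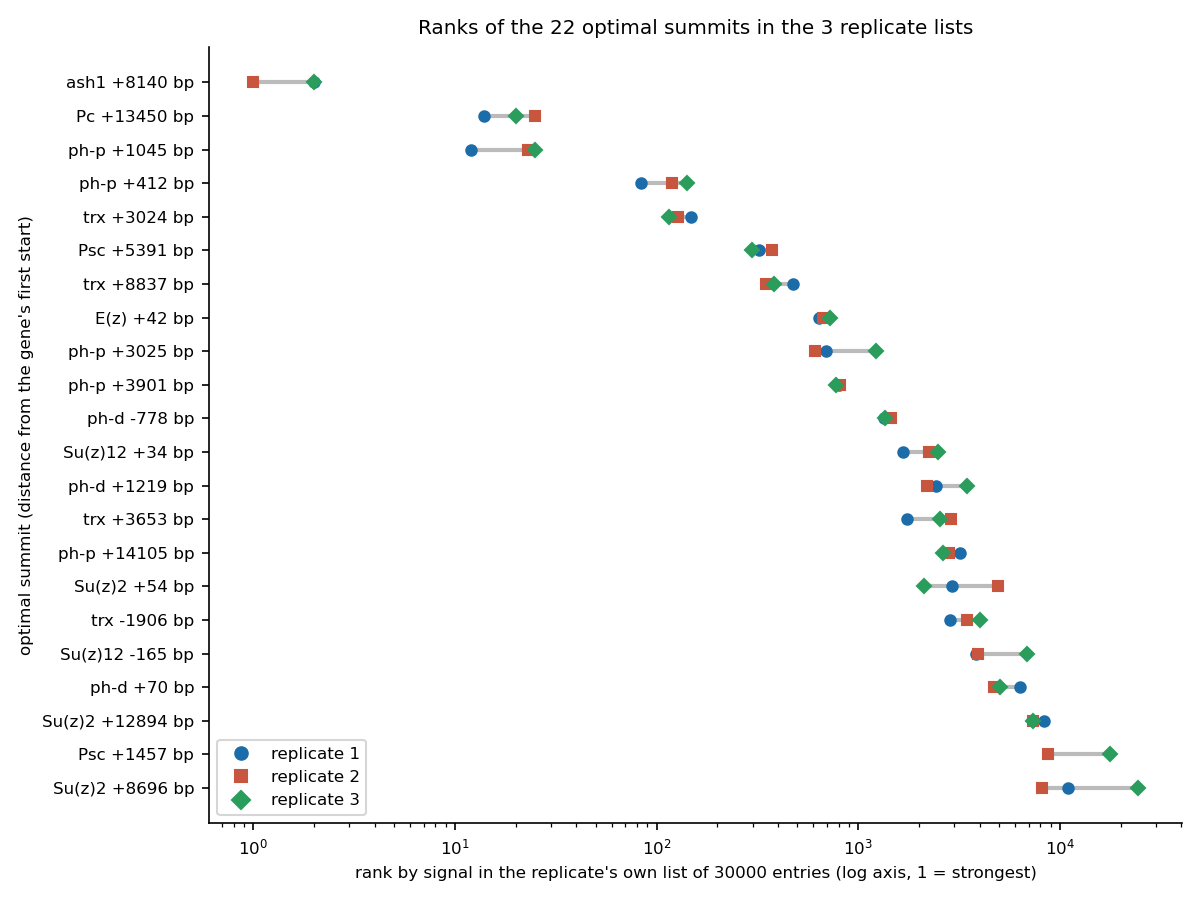
Rank by signal (log axis, 1 is the strongest of 30000) of each of the 22 optimal summits in replicates 1, 2 and 3, with summits named by gene and distance from its first start and ordered by pooled signal. The ranks of ash1 lie at 1 and 2 at the top, those of the last summit, at Su(z)2, lie between 8157 and 24327, and the Psc summit above it has no point for replicate 1.

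The same 101 bases, 50 either side of each summit, were searched for 7 words on both strands. The words were GAGAG (the GAGA factor core), GCCAT (the Pho core), TATCGATA (the DRE), GGTCACAC (the M1BP word), TGAGTG (the Zeste word), TAATTA (a homeodomain word) and TATAAA, and their matches may overlap. GAGAG and GCCAT, words of factors that recruit Polycomb complexes, each stood at 1 of the 22 summits (4.55%), at Su(z)2 and Su(z)12, against 11.7% and 13.3% of all optimal summits. The GCCAT match was at the weaker Su(z)12 summit, which lay 44 bp upstream of Pfdn6 and 165 bp upstream of Su(z)12. TGAGTG stood at 4 of the 22 (18.2%), 1 each in the windows of ph-p, ph-d, Psc and trx, against 4.61% of all optimal summits. None of these was the strongest summit of its gene, and the one in the trx window lay 262 bp upstream of red. TAATTA stood at 3 of the 22 and TATAAA at 2, against 8.53% and 19.0% of all. The DRE and M1BP words were at 0 of the 22, against 1.88% and 1.5% of all. A match is a run of letters and not a shown binding site, and the absence of these letters in a window says nothing of a factor.

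The other genes of the 2 groups had promoter summits at 32 of 63 (50.8%), against 29.0% of all protein-coding genes. Among further genes of PRC1 and its partners it was 4 of 5, led by Kdm2, a histone demethylase gene (signal 418), l(3)73Ah, a RING finger gene (277), and Scm (218). Among further genes of PRC2 and its partners it was 2 of 5, jing (480) and Jarid2 (308). Genes of the Pho complex and of proteins that bind Polycomb response elements had 7 of 11, led by Trl, which encodes GAGA factor (752), grh (439) and lolal (403). Of the deubiquitinase and other Polycomb genes it was 3 of 6: mxc (358), corto (250) and l(3)mbt (237). COMPASS genes, whose complexes methylate histone H3, had 3 of 13, which were Lpt (330), Rbbp5 (329) and ash2 (190). Genes of the BAP and PBAP remodellers had 3 of 10: brm, the ATPase gene (1544, 132 bp from a start), Bap60 (424) and mor (161). Further trithorax genes had 10 of 13, led by the bromodomain gene fs(1)h (305), nej, which encodes the acetyltransferase CBP (304), and MRG15 (263). Hox genes, classic targets of both groups, had a promoter summit at 0 of 8. Antp and Ubx, 2 of the 8, had a summit in the window, against 46.0% of all protein-coding genes. In the pooled relaxed list 4 of the 8 had a promoter entry, against 45.8% of all protein-coding genes. Insulator and promoter factor genes had a promoter summit at 10 of 17 (58.8%), led by Chro (3337), Cp190 (1209) and Dref (584). Differences between these lists were not tested.

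**Figure D5:**
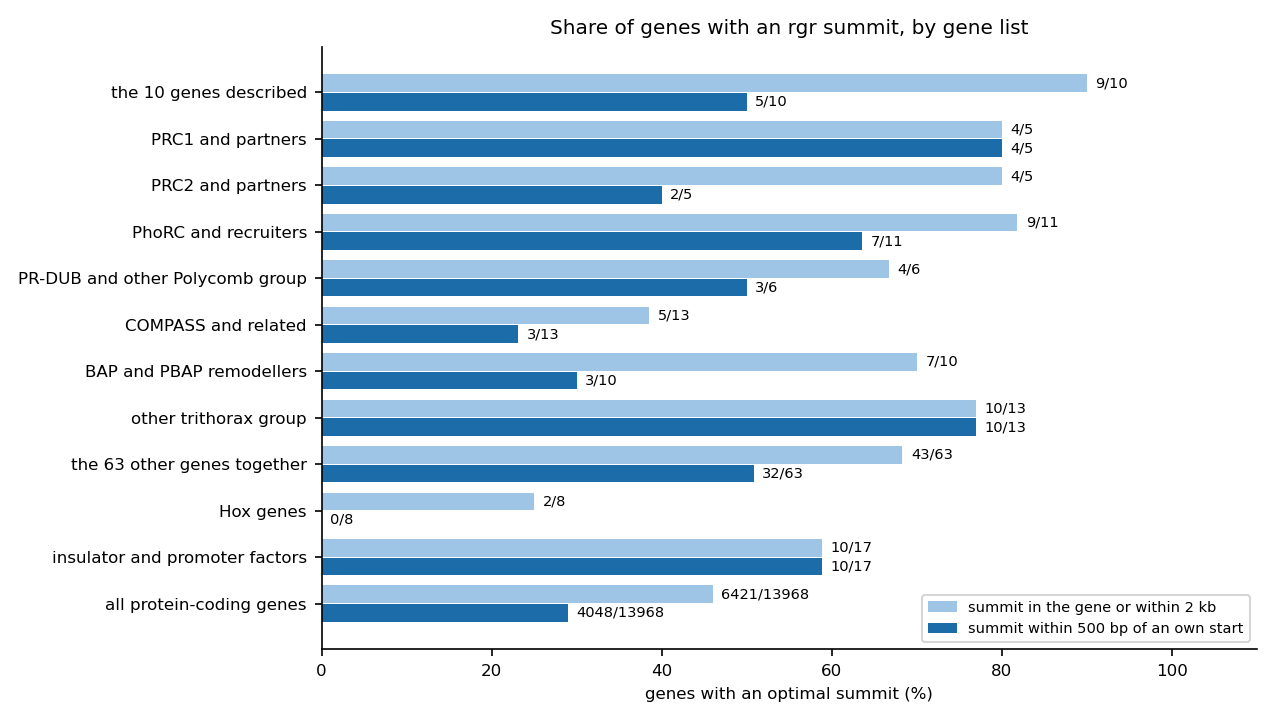
Percent of genes in each list with an optimal summit in the gene or within 2 kb (light bars) and within 500 bp of an own transcript start (dark bars), with counts beside the bars. The 10 genes stand first at 9 and 5, and all 13968 protein-coding genes stand last at 46.0% and 29.0%.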

How the data were processed

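Chromatin immunoprecipitation was done on 3 replicates of sonicated chromatin, per the labels. The authors called peaks on dm6 from each replicate and from the pooled replicates with 1 control alignment, per the deposited file listing, and used the irreproducible discovery rate to set the optimal list. Not given in the sources used here are the aligner, the peak caller and the cutoff. The deposited peak signal ranks peaks within a list. The deposited −log10 q-value played no part in the ranks. The optimal list equals the 8551 entries of highest signal in the pooled list of 30000. Lists on dm3 were not used here. Nothing gives counts, so depth is unknown.

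Summits are 1-based on dm6. Genes and starts came from Ensembl release 115 (BDGP 6.54), without transposable elements, and bases were read from the RefSeq FASTA of that assembly. Summits matched within 100 bp. The nearest start is that of any gene. Of 64 other genes of the 2 groups, 61 were matched by symbol and 2 by a unique synonym (lid as Kdm5, urd as Nsf2), and 1 was not matched. The ph regions were aligned with blastn 2.17.0. All 10 members are named, with up to 3 genes per other list by promoter signal, the genes nearest to a summit, and Cnep1r2, Antp and Ubx, added after their values were seen. The members and lists were chosen with earlier results of these data known. The counting was tested on simulated data. Python 3.11.15, numpy 2.4.6, pandas 2.3.3 and matplotlib 3.10.9 were used.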

Additional observations from a re-analysis of the deposited data

How the results depend on the processing

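Of 38 alternative counts, 36 stayed within 1.5 times the reported ones. A count near its ceiling, such as 9 of the 10 genes or 21 of the 22 summits, could leave this range only by falling. Without a replicate, meaning optimal peaks matched among the top 8551 of both other replicates, 9 of the 10 genes had a summit in the window (38.5% to 40.7% of all protein-coding genes) and 5 a promoter summit (22.5% to 24.1% of all) under each omission. Of the 22 summits 20 were left each time, against 5919 to 6467 of the 8551 optimal peaks. The optimal list filtered here was itself made with all 3 replicates. The other genes of the 2 groups then had promoter summits at 27 to 29, in alternatives chosen after seeing the data. When the 22 summits were instead matched to all 30000 entries of both other replicate lists, 21 to 22 were found. The share of all optimal peaks found in this looser way was not counted. The 2 counts that moved further came from the pooled relaxed list, which the authors name as peaks and background: it had 49 entries at the 10 genes and promoter entries at 8 of them, adding Pc, Psc and trx, against 45.8% of all protein-coding genes. In the window it had entries at 10 of the 10, against 64.1% of all. Counting summits inside the gene left 7 of the 10, without Pc, ash1 and esc, against 17.9% of all. Within 250 bp of a start, ph-p dropped out, leaving 4 of the 10, against 24.3% of all. No paired analysis was possible because the labels give 1 group. With no read counts, weak summits near the threshold cannot be given a counting error.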

Other observations

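Some other genes of the 2 groups had a very strong summit in their window without a strong one at their own start. They are named after their values were seen. The strongest summit in the window ranked 22 of 8551 at osa, a BAP remodeller subunit gene with 8 summits, 27 at Caf1-55, which encodes a histone-binding subunit of PRC2, and 37 at phol, a homologue of pho, whose own promoter summit ranked 7983. Where these summits lie against the starts of neighbouring genes was not examined, so they may stand at another gene, as with ash1 and Pc.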
